A study of Homo sapiens with 32 samples.

Results

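The DNA replication machinery and the enzymes that make deoxynucleotides were followed as 49 genes, of 48804 genes in the count table, in MDA-MB-468 cells, a human triple-negative breast cancer line. The genes were taken from a list of known replication factors and cover 8 roles, from the marking of replication origins to the synthesis of DNA precursors. All 49 were found in the table and all 49 had counts high enough to be tested in every comparison. The cells received PBS (control), salinomycin (Sal, a polyether ionophore antibiotic) at 0.5 μM, dasatinib (Das, an inhibitor of Src-family and other tyrosine kinases) at 15 μM, or both together (S + D, 15.5 μM in all), for 24 or 72 h. Each of the 8 conditions had 4 libraries described as biological replicates, 32 in all, of this 1 cell line. The question was how each drug, and the pair, changed the RNA of this machinery, and when.

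To copy its genome a cell first loads the MCM helicase on origins with ORC, CDC6 and CDT1, and then, on entering S phase, activates it with CDC45, the GINS complex and MCM10. DNA polymerases alpha, epsilon and delta, the sliding clamp PCNA with its RFC loaders, the single-strand binder RPA and the enzymes that join Okazaki fragments then do the synthesis, from deoxynucleotides supplied chiefly by ribonucleotide reductase and thymidylate synthase. Many of these genes are transcribed in a wave at the G1/S border under E2F factors, so their RNA is commonly high in dividing and low in resting cultures. In bulk RNA, fewer cells in S phase and less of each RNA per cell cannot be told apart.

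Library totals ran from 25692561 to 42769687 counts. Levels are given as counts per 1000000 counts (CPM), scaled with TMM factors, a correction for library composition, and values of a condition are listed in the order unnumbered library, replicate 1, replicate 2, replicate 3. In each condition 1 library carried no number, and these 8 libraries departed from their groups together: among all genes their deviations correlated at 0.69 to 0.76 at 24 h and 0.63 to 0.72 at 72 h. Counts of members called were therefore also taken from the 3 numbered libraries of each condition alone. The unnumbered libraries were matched to their columns by the condition letter, as the only library of that letter without a number. A further library stood apart, replicate 3 of Das at 72 h. It was the highest of its group for 42 of the 49 members and lay at or above the lowest control for 23. No share over all genes was taken for these counts. The 42 alone does not set this library apart. Of the unnumbered libraries, that of Sal at 72 h was the highest of its group for 41 members. That of S + D at 72 h led for 37 and that of Das at 24 h for 35. In the remaining conditions the unnumbered library was the highest for 5 to 29. A set of 1099 other genes was lower with Das at 24 h. For these, replicate 3 of Das at 72 h had a median log2 difference of -0.39 from the 72 h controls. The other Das libraries at 72 h had -0.77, -1.02 and -0.98. Whether replicate 3 of Das at 72 h received the drug as labelled, or is a mix-up, was not tested. Counts over all 49 members that rest on this library are given with and without it. Das counts by role at 72 h, and most values of single genes, include it. The summed CPM of epithelial marker genes was between 4090 and 8320 in all libraries, against 2.35 to 32.4 for leukocyte, 18.3 to 122 for fibroblast and 0.352 to 7.96 for endothelial markers.

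Some short motifs, which the choice of genes had not used, were more frequent in the members' promoters than among all genes, and another was rarer. A promoter here is RefSeq sequence (GRCh38.p14) from 250 bases before to 50 after an annotated start, and 42 of the 49 members had one. An E2F-type match, TTTCCCGC, TTTCGCGC, TTTGCCGC or TTTGGCGC on either strand, lay in a promoter of 22 of these 42 genes (52.4%), against 3.99% of the 27305 genes in the table. CCAAT, read on either strand, lay in 28 of 42 (66.7%) against 39.7% of genes, and TTTGAA in 2 of 42 (4.76%) against 18.2%. A match is a run of letters and was not shown to be a bound site. The 5 stretches below are the 160 bases before the start, 5′ to 3′ on the gene's strand, chosen because MCM6 had the most E2F-type matches, PCNA and DTL had 1 each and fell, POLA2 had 1 and kept its level with Sal at 72 h, and RRM2 fell most while having none. Capitals mark the E2F-type matches on either strand, overlapping in pairs in MCM6, and in RRM2 the CCAAT matches.
MCM6 (chr2:135876444-135876603, - strand): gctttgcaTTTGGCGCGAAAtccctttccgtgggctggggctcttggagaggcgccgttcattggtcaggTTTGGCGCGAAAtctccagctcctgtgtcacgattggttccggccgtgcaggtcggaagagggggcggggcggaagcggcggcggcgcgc
PCNA (chr20:5126623-5126782, - strand): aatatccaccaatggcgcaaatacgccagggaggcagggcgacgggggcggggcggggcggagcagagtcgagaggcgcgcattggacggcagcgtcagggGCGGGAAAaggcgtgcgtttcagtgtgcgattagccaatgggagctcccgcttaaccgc
DTL (chr1:212035588-212035747, + strand): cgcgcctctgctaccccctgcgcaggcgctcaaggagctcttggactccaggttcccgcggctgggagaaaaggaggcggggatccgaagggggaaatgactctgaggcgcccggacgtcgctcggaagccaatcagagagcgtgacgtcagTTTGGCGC
POLA2 (chr11:65261802-65261961, + strand): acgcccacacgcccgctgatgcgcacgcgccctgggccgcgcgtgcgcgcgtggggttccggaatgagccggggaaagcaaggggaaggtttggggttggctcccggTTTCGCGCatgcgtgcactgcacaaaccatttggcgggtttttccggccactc
RRM2 (chr2:10122579-10122738, + strand): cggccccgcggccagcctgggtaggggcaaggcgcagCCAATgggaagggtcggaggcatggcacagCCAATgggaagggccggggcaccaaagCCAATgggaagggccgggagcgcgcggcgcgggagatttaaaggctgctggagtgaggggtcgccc

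**Figure D1:**
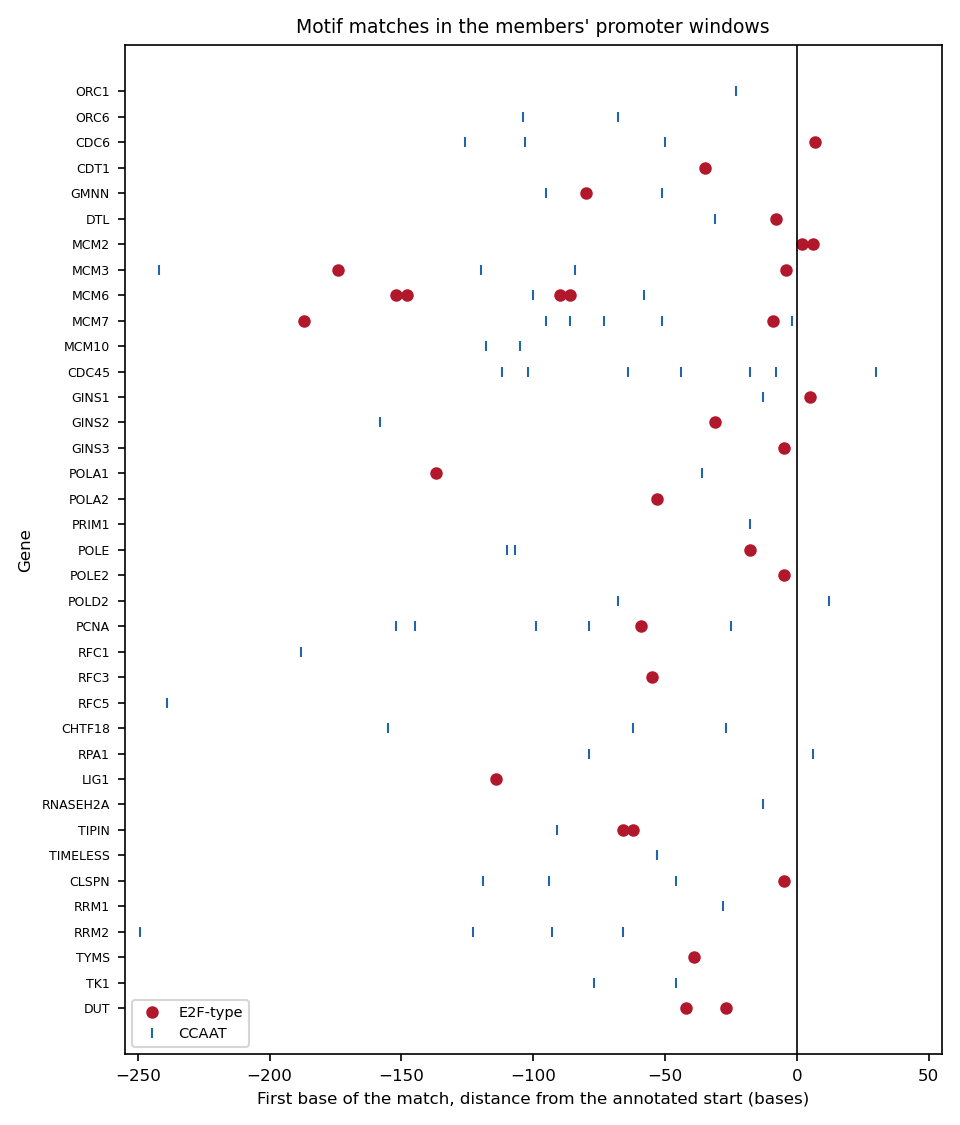
Places of E2F-type matches (red circles) and CCAAT matches (blue ticks), as the distance in bases of the first base of the match from the annotated start (black line), for the 37 members with at least 1 of either. Most E2F-type matches lie in the last 100 bases before the start, as in PCNA and DTL.

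Each drug lowered the RNA of replication genes, the pair lowered the most, and no member was called higher with any drug against control in the fit used here. A gene is called here when its adjusted p is under 0.01 in the quasi-likelihood test of edgeR, adjusted over all genes tested by the Benjamini-Hochberg method. Sal at 24 h lowered 11 of the 49 members, with a median log2 fold change of -0.27 over the members, where 2.23% of all genes tested were called lower and the median over all genes was -0.02. Das at 24 h lowered 26 (median -0.51), against 6.88% of all genes. S + D at 24 h lowered 42 (median -1.04), against 16.5% of all genes. By 72 h Sal lowered 38 (median -1.20), against 26.8% of all genes, and 16 of the 38 had fallen by over 1.5 on the log2 scale. Das at 72 h lowered 17 (median -0.67), against 9.36%, and S + D lowered 42 (median -1.51), against 27.9%. Of these 42 members, 25 fell by over 1.5. The shares of all genes given here are for the adjusted p alone, so they are no measure for the 16 and the 25. DESeq2, run as an alternative, called 1 member higher with Sal and 1 with S + D at 72 h. A fit with a term for the unnumbered libraries called 1 higher with S + D at 24 h, and 2 with Sal and 1 with S + D at 72 h. The medians over all genes lay between -0.02 and 0.04 in these comparisons.

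**Figure D2:**
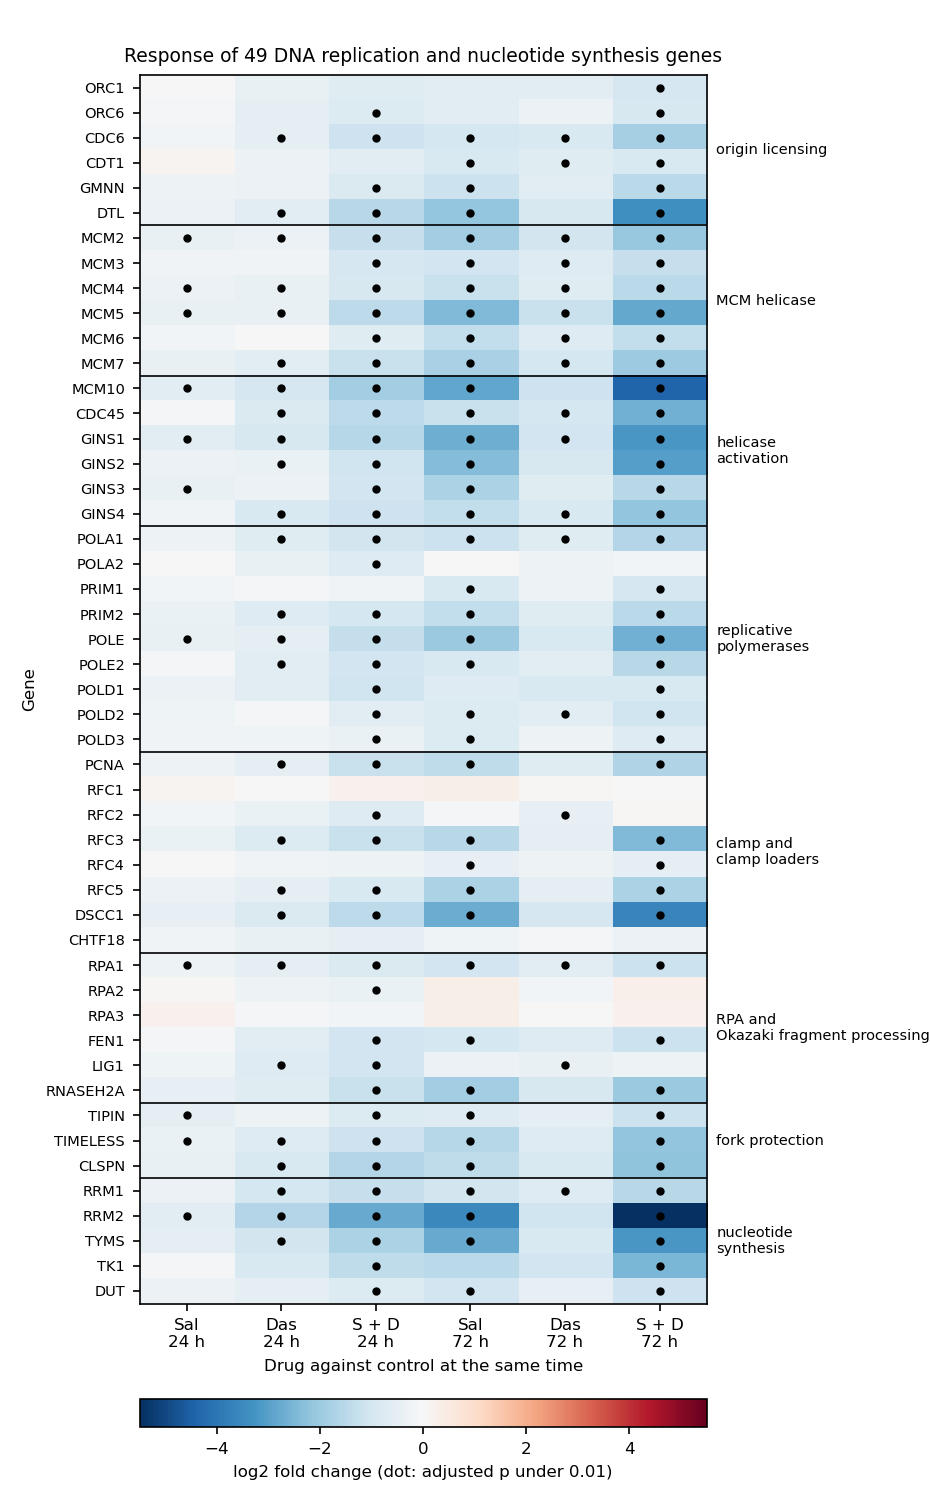
Log2 fold change of each of the 49 members (rows, by role) with each drug against the control of the same time (columns), on a colour scale from -5.5 to 5.5, with a dot where the adjusted p is under 0.01. The S + D column at 72 h is darkest, with RRM2 at -5.46 and MCM10 at -4.41, and RFC1, RPA3 and CHTF18 carry no dot in any column.

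The same counts from the numbered libraries were larger at 24 h. Sal at 24 h then lowered 32 members and raised 1, RFC1, where 10.9% of all genes were called lower. Das at 24 h lowered 45, against 18.7%, and S + D lowered 46 and raised RFC1, against 29.4%. At 72 h the numbered libraries gave 42 lower with Sal, with RFC1 higher, against 29.6% of genes called lower, 12 lower with Das against 11.5%, and 42 lower with S + D against 29.5%. Without replicate 3 of Das at 72 h, the Das count at 72 h was 40 rather than 17, against 13.2% of all genes, and the median was -0.89. Leaving out another library moved this count down, to 3 without Das replicate 1 or 2, 9 without the unnumbered Das library, and 7 to 10 without any 1 of the 4 controls. The Sal count at 24 h was as easily moved: it was 2 to 4 without any 1 control, 4 without the unnumbered Sal library or Sal replicate 3, and 7 without Sal replicate 2, and no member was called when all 32 libraries entered 1 fit, although 44 of the 49 log2 fold changes were negative.

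The summed level of the members gives the size of the change in each culture. The 24 h controls held between 6563 and 6671 CPM of member RNA, a mean of 6616 ± 44 (SD, n = 4). With Sal at 24 h the sum was 5460 ± 171, with Das 4439 ± 383 and with S + D 3048 ± 219, and the ranges of these 4 conditions did not overlap. At 72 h the controls held 5207 ± 145, Sal 2318 ± 326, Das 3246 ± 974 and S + D 1938 ± 161. The Das libraries at 72 h ran from 2523 to 4637, the latter being replicate 3, and the Sal range of 2075 to 2794 overlapped both the Das range and that of S + D, 1813 to 2152.

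**Figure D3:**
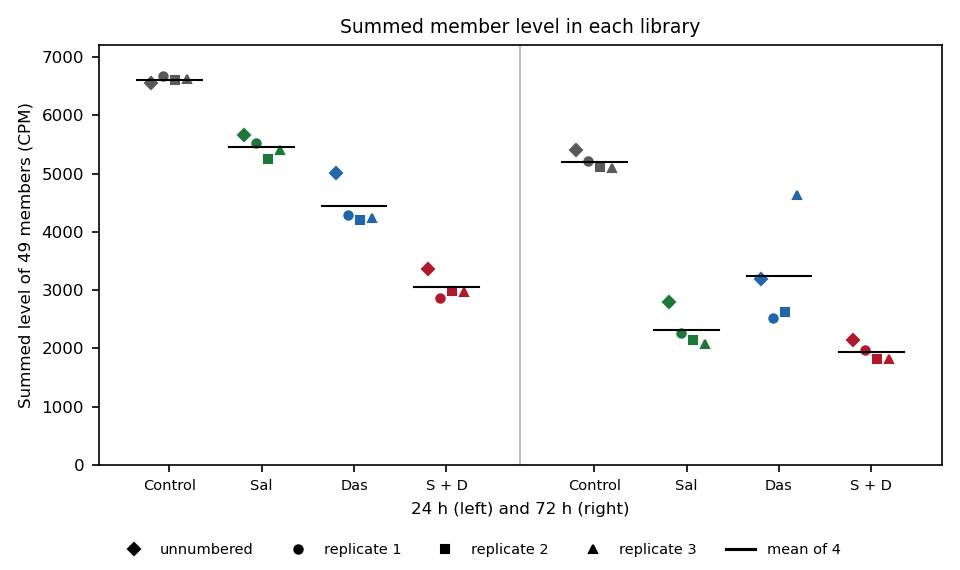
Summed CPM of the 49 members in each library (points, with 1 symbol per replicate name) and the mean of each condition (bars), at 24 h on the left and 72 h on the right. At 24 h the 4 conditions step down without overlap from about 6616 in the controls to 3048 with S + D, and at 72 h replicate 3 of Das, at 4637, lies well above the rest of its group.

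Origin licensing genes moved little with Sal at 24 h and more with each other treatment. None of the 6 was called with Sal at 24 h, 2 with Das, 4 with S + D, and at 72 h Sal lowered 4, Das 2 and S + D all 6. Without replicate 3 of Das, all but ORC6 (adjusted p = 0.229) were called lower with Das at 72 h. DTL, the substrate receptor of the ubiquitin ligase that destroys CDT1 on replicating DNA, fell most. Its level at 72 h was 78.0, 82.1, 79.3 and 73.9 CPM in controls, 30.6, 13.6, 15.1 and 13.3 with Sal, 37.0, 25.3, 30.0 and 79.7 in Das libraries and 11.3, 6.5, 6.55 and 5.76 under S + D. All Sal and S + D libraries were below all controls, and replicate 3 of Das was at the control level. The log2 fold change of DTL was -2.12 ± 0.34 (SE, adjusted p = 3.05e-05) with Sal and -3.39 ± 0.36 (adjusted p = 3.54e-07) with S + D. CDC6, a loader of the helicase, had log2 fold changes of -0.98 with Sal and -1.81 with S + D, both called, and GMNN, the inhibitor of CDT1, -1.19 and -1.49. ORC1, the largest ORC subunit, changed least with Sal at 72 h: its controls were 50.5, 45.9, 46.1 and 46.0 CPM, Sal libraries 41.0, 30.8, 28.1 and 26.4, and S + D libraries 34.4, 21.1, 23.5 and 22.3. The log2 fold change of ORC1 with Sal was -0.59 ± 0.19 (adjusted p = 0.0102), just outside the threshold, and -0.74 (adjusted p = 0.00247) without the unnumbered Sal library. At 24 h the S + D libraries of ORC1 held 66.6, 29.0, 28.4 and 27.6 CPM, so that the unnumbered library alone stayed at the control level of 59.3 to 65.5.

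The 6 subunits of the MCM2-7 helicase, the motor that unwinds DNA at the fork, were all called lower with each treatment at 72 h and with S + D at 24 h. The median at 24 h with S + D was -1.08, and at 72 h the 6 genes had medians of -1.58 for Sal, -0.83 for Das and -1.74 for S + D. With Sal at 24 h 3 of the 6 were called (MCM2, MCM4 and MCM5) and with Das 4, while MCM6 held 227, 195, 196 and 199 CPM in Das libraries at 24 h against 218, 205, 203 and 205 in controls. MCM5 showed the widest fall with Sal at 72 h. At 24 h its controls held 163, 175, 181 and 182 CPM, Sal libraries 126, 154, 118 and 143, Das libraries 127, 135, 125 and 128, and S + D libraries 62.6, 59.4, 66.7 and 65.8. At 72 h these were 127, 120, 121 and 137 in controls, 36.4, 23.6, 17.6 and 16.7 with Sal, 56.3, 36.5, 36.7 and 89.4 in Das libraries and 20.1, 17.1, 17.2 and 18.4 under S + D. No treated library of MCM5 overlapped the controls at either time. The log2 fold change was -0.39 ± 0.09 with Sal at 24 h (adjusted p = 0.00681), a call lost without any 1 control or without Sal replicate 2, 3 or the unnumbered Sal library (-0.33 to -0.40), and -2.44 ± 0.27 with Sal at 72 h (adjusted p = 6.99e-07). MCM3 fell least with Sal at 72 h, from 342, 327, 329 and 331 CPM in the 72 h controls to 189, 170, 149 and 145 with Sal and 155, 137, 129 and 130 with S + D. With Das at 72 h MCM3 held 207, 160, 167 and 295 CPM, a log2 fold change of -0.69 ± 0.16 (adjusted p = 0.00295) that missed the threshold without Das replicate 1 or 2 (adjusted p = 0.0150 and 0.0154). Exon positions of MCM2 overlap another annotated gene over 23.6% of their length, and whether counting used the strand is not given in the sources used here.

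Factors that switch the helicase on had larger median falls than the helicase itself at 72 h with Sal and S + D. All 6, MCM10, CDC45 and GINS1 to GINS4, were called lower with Sal at 72 h (median -2.07) and with S + D at both times (medians -1.27 and -2.84). With Das 5 fell at 24 h and 3 at 72 h, and without replicate 3 of Das all 6 were called lower at 72 h. MCM10, which is needed for the loaded helicase to start moving (chr10:13203558-13253110, GRCh37), went from 41.6, 40.6, 39.3 and 36.1 CPM in the 72 h controls to 11.4, 3.75, 3.25 and 3.29 with Sal, 17.5, 9.98, 10.5 and 32.8 in Das libraries and 3.51, 1.28, 1.60 and 1.07 under S + D. Every treated library was below every control. The log2 fold change of MCM10 was -2.86 ± 0.45 with Sal (adjusted p = 3.02e-05) and -4.41 ± 0.50 with S + D (adjusted p = 7.05e-07). With Das at 72 h it was -1.16 ± 0.42 (adjusted p = 0.0432), and -1.62 (adjusted p = 0.00454) without replicate 3. CDC45, which rides with the helicase, was called with Das but not with Sal at 24 h. At 24 h its controls held 67.7, 77.3, 75.7 and 71.1 CPM, Sal libraries 76.6, 65.4, 64.7 and 67.5, and Das libraries 49.8, 40.7, 39.1 and 37.2. Its log2 fold change at 24 h was -0.10 ± 0.09 with Sal (adjusted p = 0.538) and -0.79 ± 0.09 with Das (adjusted p = 1.84e-05), and the Das libraries did not overlap either of the others. By 72 h CDC45 was at 48.7, 50.8, 48.4 and 49.9 CPM in controls, 30.1, 20.8, 18.1 and 16.2 with Sal, 20.9, 19.9, 19.2 and 40.9 in Das libraries and 10.5, 7.33, 7.20 and 6.86 under S + D. The Das call for CDC45 at 72 h (-0.98 ± 0.23, adjusted p = 0.00397) was lost on leaving out control replicate 1 or 3, or Das replicate 1, 2 or the unnumbered library (adjusted p between 0.0102 and 0.0183).

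Most of the replicative polymerase genes fell with Sal and S + D by 72 h, and POLA2 stayed near its control level. Of 9, 1 fell with Sal at 24 h (POLE, -0.43 ± 0.10, adjusted p = 0.00808, between 0.0142 and 0.0342 without any 1 control or without Sal replicate 2, 3 or the unnumbered Sal library), 4 with Das and 8 with S + D, and at 72 h Sal lowered 7, Das 2 and S + D 8. Without replicate 3 of Das, all but POLD1 (adjusted p = 0.0112) were called lower with Das at 72 h. POLE, the catalytic subunit of polymerase epsilon on the leading strand, went from 114, 83.7, 91.9 and 102 CPM in the 72 h controls to 36.5, 21.9, 17.4 and 19.3 with Sal, 60.7, 40.8, 39.9 and 81.4 in Das libraries and 19.5, 11, 16.3 and 16.9 under S + D. The log2 fold changes of POLE were -2.06 ± 0.26 with Sal (adjusted p = 2.46e-06) and -2.63 ± 0.26 with S + D (adjusted p = 2.09e-07). Its accessory subunit POLE2 fell by 0.82 with Sal on the log2 scale, and POLA1, the catalytic subunit of polymerase alpha, by 1.20. POLA2, the regulatory subunit of that same polymerase, held 71.8, 67.3, 63.4 and 65.6 CPM in the 72 h controls and 73.8, 65.1, 66.1 and 70.0 with Sal, overlapping throughout. Its log2 fold change was 0.02 ± 0.10 with Sal (adjusted p = 0.872) and -0.14 ± 0.10 with S + D at 72 h (adjusted p = 0.203). POLA2 had fallen with S + D at 24 h, from 83.3, 78.4, 77.6 and 77.4 to 61.9, 44.7, 42.8 and 42.1 CPM (-0.69 ± 0.16, adjusted p = 0.00189). Exon positions of POLA2 overlap other annotated genes over 21.3% of their length, so its counts could be affected by them. The primase subunits PRIM1 and PRIM2 were at -0.85 and -1.37 with Sal at 72 h, both called, and the delta subunits POLD2 and POLD3 at -0.75 and -0.77, both called, while POLD1 at -0.72 ± 0.24 was not (adjusted p = 0.0142).

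PCNA, the ring that tethers polymerases to DNA, fell together with part of its loading machinery. At 24 h PCNA (chr20:5095599-5107272, GRCh37) held 520, 561, 545 and 532 CPM in controls, 454, 450, 451 and 443 with Sal, 443, 352, 358 and 338 in Das libraries and 217, 225, 231 and 230 under S + D. Only the unnumbered Das library reached the Sal range. At 72 h PCNA held 456, 481, 461 and 420 CPM in controls, 208, 168, 165 and 158 with Sal, 261, 218, 235 and 445 in Das libraries and 161, 172, 130 and 127 under S + D. The log2 fold change at 72 h was -1.40 ± 0.19 with Sal (adjusted p = 4.74e-06), -1.64 ± 0.19 with S + D (adjusted p = 8.15e-07), and with Das -0.65 ± 0.18 (adjusted p = 0.0108), or -0.92 (adjusted p = 3.14e-05) without replicate 3. Among the loaders, 4 of 7 fell with Sal and with S + D at 72 h: RFC3 (-1.53 and -2.43), RFC4 (-0.44 and -0.55), RFC5 (-1.73 and -1.76) and DSCC1 (-2.74 and -3.63), a subunit of the loader that acts in sister chromatid cohesion. DSCC1 was at 20, 18.9, 17.6 and 16 CPM in controls, 4.37, 2.66, 1.89 and 1.95 with Sal and 2.08, 1.79, 0.917 and 1.13 with S + D, the last from 35 to 74 counts per library. RFC1, the large subunit of the main loader, went the other way in level. Its 72 h controls held 124, 156, 149 and 133 CPM and its Sal libraries 138, 174, 192 and 199, a log2 fold change of 0.31 ± 0.12 (adjusted p = 0.0368), which became 0.41 (adjusted p = 0.00484) without the unnumbered Sal library. RFC2, a small subunit, was at 57.8, 63.7, 61.4 and 57.2 CPM in the 72 h controls, 58.1, 57.5, 55.2 and 53.9 with Sal, 40.4, 42.6, 40.6 and 52.2 in Das libraries and 61.6, 75.1, 59.3 and 59.7 under S + D. Das was thus the lowest condition for RFC2 (-0.46 ± 0.11, adjusted p = 0.00365), and S + D overlapped the controls.

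RPA, the trimer that coats single-stranded DNA, did not move as a unit. RPA1, its large subunit, fell in all 6 drug comparisons, from -0.28 with Sal at 24 h to -1.16 with S + D at 72 h. RPA2, the middle subunit, held 51.1, 59.8, 55.5 and 52.8 CPM in the 72 h controls, 68.3, 68.3, 67.0 and 70.5 with Sal, 43.6, 51.8, 51.5 and 49.2 in Das libraries and 64.3, 78.9, 63.0 and 64.9 under S + D. All Sal and all S + D libraries of RPA2 lay above all controls, at 0.31 ± 0.10 (adjusted p = 0.0115) and 0.29 ± 0.10 (adjusted p = 0.0151), and both passed the threshold without replicate 3 of Das, which shares in the estimate of the spread (adjusted p = 0.00789 and 0.00764). At 24 h RPA2 had gone down with S + D, from 57.7, 67.7, 67.3 and 63.5 to 53.5, 46.6, 45.0 and 48.2 CPM (-0.37 ± 0.09, adjusted p = 0.00309), a call lost without S + D replicate 1 or 2 (adjusted p = 0.0116 and 0.0134). RPA3, the small subunit, was not called in any of the 6 comparisons. Among the Okazaki fragment enzymes, the flap nuclease FEN1 fell with Sal and S + D at 72 h (-0.95 and -1.18), and LIG1, the ligase, fell with Das and S + D at 24 h (-0.69 and -1.06) and with Das at 72 h (-0.42). RNASEH2A, the catalytic subunit of the nuclease that removes ribonucleotides, fell most, from 94.9, 81.9, 84.2 and 93.3 CPM in the 72 h controls to 34.1, 21.7, 20.5 and 18.0 with Sal and 25.8, 24.8, 18.1 and 17.4 with S + D. Its log2 fold changes were -1.93 ± 0.26 (adjusted p = 6.22e-06) and -2.06 ± 0.26 (adjusted p = 2.94e-06), and 53.3% of its exon length is shared with THSD8, so counts could be split between the pair.

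All 3 fork protection genes fell with Sal at 72 h and with S + D at both times. TIMELESS, which keeps the helicase and polymerases coupled, was at 92.4, 77.0, 81.2 and 81.4 CPM in the 72 h controls, 39.4, 26.5, 24.7 and 21.5 with Sal, 51.4, 37.6, 40.9 and 75.4 in Das libraries and 22.5, 16.8, 18.1 and 17.6 under S + D. The log2 fold changes were -1.58 ± 0.21 with Sal (adjusted p = 4.12e-06) and -2.16 ± 0.21 with S + D (adjusted p = 1.69e-07). TIPIN, its partner, fell less, from 11.9, 15.0, 14 and 12.3 to 9.63, 7.21, 8.57 and 7.94 CPM with Sal (-0.69 ± 0.20, adjusted p = 0.00512). That call was lost without control replicate 1 or 2 or Sal replicate 1, 2 or 3 (adjusted p between 0.0115 and 0.0190). CLSPN, which passes the fork signal to CHK1, was at -1.38 with Sal and -2.22 with S + D at 72 h, both called.

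Nucleotide synthesis held the widest fall of all. RRM2, the regulatory subunit of ribonucleotide reductase (chr2:10260825-10351851, GRCh37), held 552, 723, 687 and 679 CPM in the 24 h controls, 333, 475, 473 and 436 with Sal, 218, 210, 212 and 219 in Das libraries and 85.4, 89.9, 98.4 and 98.6 under S + D. The 4 conditions did not overlap. At 72 h its controls held 355, 413, 376 and 367 CPM, Sal libraries 62.8, 25.7, 20.3 and 20.9, Das libraries 122, 84.7, 106 and 399 and S + D libraries 11, 8.04, 8.85 and 6.83. Replicate 3 of Das was inside the control range while the other Das libraries were well below it. The log2 fold changes of RRM2 at 24 h were -0.63 ± 0.11 with Sal (adjusted p = 0.00164), -1.60 ± 0.12 with Das (adjusted p = 1.64e-07) and -2.79 ± 0.12 with S + D (adjusted p = 4.21e-10). At 72 h they were -3.56 ± 0.45 with Sal (adjusted p = 3.06e-06), -5.46 ± 0.50 with S + D (adjusted p = 8.69e-08) and -1.09 ± 0.41 with Das (adjusted p = 0.0495), the last becoming -1.85 (adjusted p = 0.000169) without replicate 3. RRM1, the large subunit of the same enzyme, changed less: 185, 161, 158 and 145 CPM in the 72 h controls, 111, 72.9, 75.5 and 70.2 with Sal, 94.3, 79.6, 79.2 and 140 in Das libraries and 66.7, 58.4, 53.3 and 53.2 under S + D. Its log2 fold changes were -1.0 ± 0.18 with Sal (adjusted p = 0.000107) and -1.51 ± 0.18 with S + D (adjusted p = 1.52e-06). TYMS, thymidylate synthase, fell by 2.76 with Sal and 3.18 with S + D on the log2 scale, and 47.9% of its exon length overlaps ENOSF1 and TYMSOS. TK1, the salvage thymidine kinase, was at -1.47 ± 0.48 with Sal (adjusted p = 0.0127) and -2.49 ± 0.50 with S + D (adjusted p = 0.000299), with an unnumbered Sal library at 87.4 CPM against 25.9, 18.9 and 15.6 in the numbered ones. DUT, the dUTPase, was at -1.04 and -1.15, both called.

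**Figure D4:**
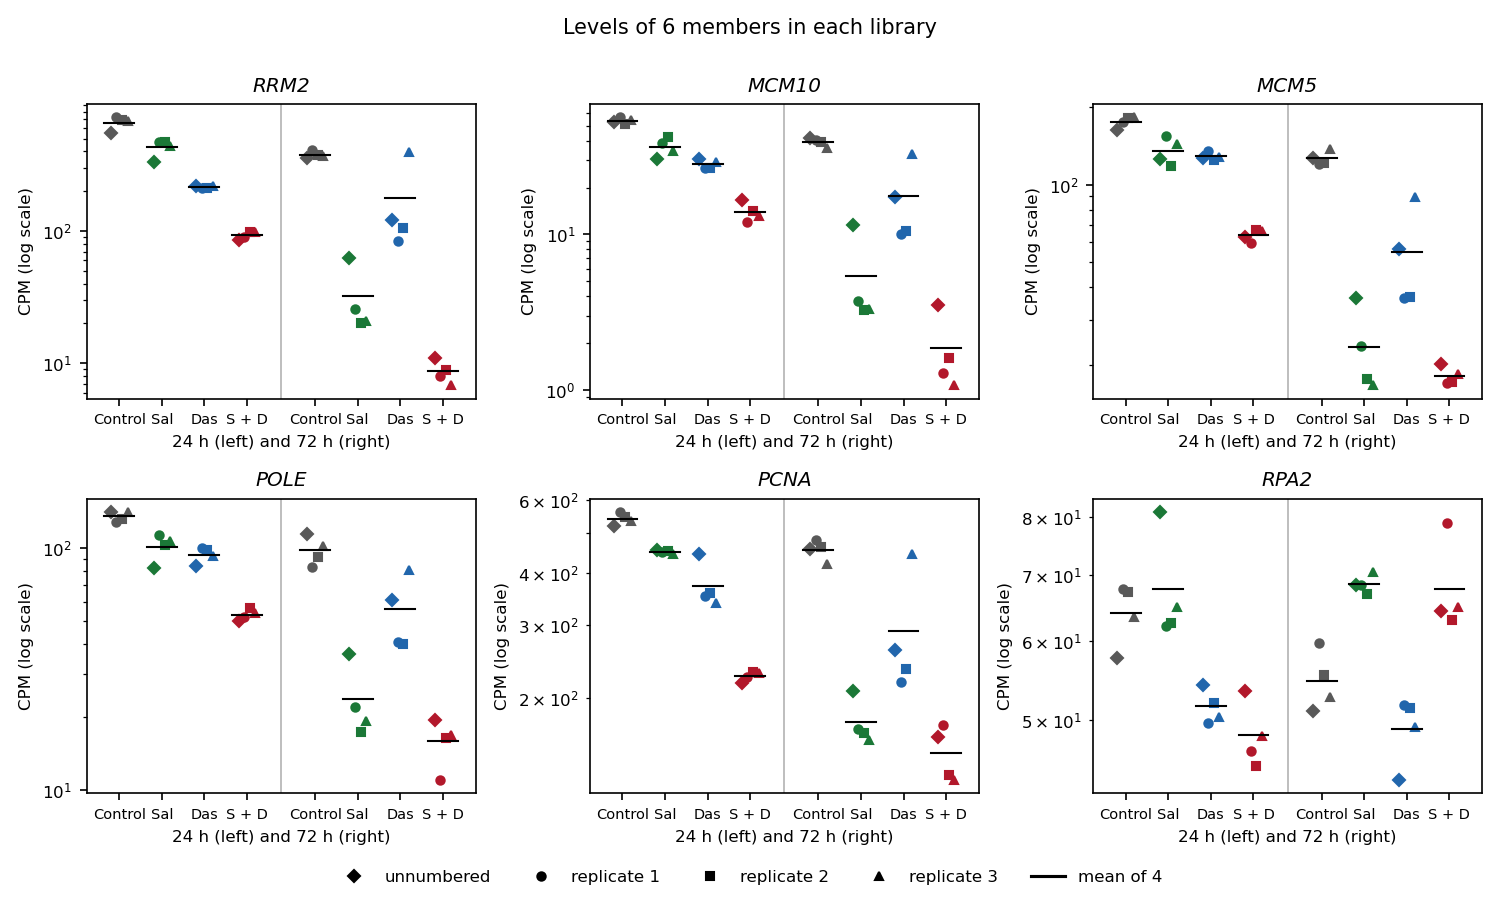
CPM on a log axis of 6 members in each library (points, 1 symbol per replicate name, with the condition mean as a bar), at 24 h on the left and 72 h on the right of each panel. RRM2 falls from 355 to 413 CPM in the 72 h controls to 6.83 to 11 with S + D, replicate 3 is the highest Das library at 72 h in every panel but RPA2, and RPA2 alone of the 6 is higher with Sal and with S + D at 72 h.

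Setting the pair against each single drug asked whether the second drug added to the fall. At 24 h S + D was below Sal for 36 members (median -0.76), against 7.06% of all genes called lower, and below Das for 24 (median -0.47), against 4.46%. For RRM2 these differences were -2.16 ± 0.12 and -1.19 ± 0.12 (adjusted p = 1.22e-08 and 1.84e-05). At 72 h S + D was below Das for 33 members, against 17.7% of all genes, and above it for 2, RFC2 (0.53 ± 0.11) and RPA2 (0.46 ± 0.10), where 14.3% of all genes were called higher. These 2 were a smaller share than that among all genes. Against Sal at 72 h only 2 members were called lower, CDC45 (-1.42 ± 0.24, adjusted p = 0.00140) and RFC3 (-0.90 ± 0.19, adjusted p = 0.00760), where 1.59% of all genes were, although 43 of the 49 differences were negative (median -0.27). The difference for RRM2 was -1.90 ± 0.44 (adjusted p = 0.0118), and its ranges with Sal and with S + D did not overlap. Without replicate 3 of Das the count against Sal was 8 (CDC6, DTL, CDC45, POLA1, POLE2, RFC3, CLSPN and RRM2), against 2.58% of all genes, and the count fell to 1 on leaving out any 1 Sal library or S + D replicate 1, 2 or 3. Against Das without that library, 27 members were lower, where 13.1% of genes were, and RFC2 and RPA2 were still higher, where 11.5% of genes were. The numbered libraries gave 45 members below Sal (23.0% of genes) and 40 below Das (19.4%) at 24 h, and at 72 h 1 below Sal (1.91%), 35 below Das (19.8%) and 2 above Das (16.8%).

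Whether the pair did more or less than the sum of the single responses was tested with an interaction term, which on the log2 scale is negative when S + D lies below that sum. At 24 h the term was negative for 43 of the 49 members (median -0.21). None was called, where 0.0306% of all genes were called negative. An unadjusted p under 0.05 was found for 13 members, and DESeq2 called 6. No share over all genes was taken for these counts, and the 0.0306% is no measure for them. For MCM5 the term was -0.61 ± 0.12 (adjusted p = 0.0498) and for RRM2 -0.56 ± 0.16 (adjusted p = 0.217). In the numbered libraries 14 members were called, all negative, against 4.50% of all genes: 4 of the 6 MCM subunits (MCM2, MCM3, MCM5 and MCM6), 4 licensing genes (ORC1, CDC6, CDT1 and DTL), MCM10, CDC45, POLE, PCNA, CLSPN and RRM2. Among these RRM2 was at -0.60 ± 0.07 (adjusted p = 2.61e-05) and DTL at -0.78 ± 0.09 (adjusted p = 3.08e-05). At 72 h the term was negative for 11 of the 49 members and positive for most (median 0.27), a positive term placing S + D above that sum. The members come from the same libraries, so their signs are not independent. Only RFC2 was called, at 0.64 ± 0.15 (adjusted p = 0.00795), where 3.43% of all genes were called positive. That call was lost in the numbered libraries and without any 1 control, any 1 S + D library, Sal replicate 1, 2 or 3, or Das replicate 1, 2 or the unnumbered library. Without replicate 3 of Das 11 members were called positive, against 6.25% of all genes: MCM3 to MCM7, GINS3, POLA1, PCNA, RFC2, RPA1 and LIG1, with MCM5 at 1.18 ± 0.29 (adjusted p = 0.00708). With all libraries in the fit RRM2 was at -0.81, not called. Without replicate 3 of Das it was at -0.03 ± 0.40 (adjusted p = 0.967). The sum of its single responses then matched the pair to within that error.

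The response of many members to Sal and to S + D grew between 24 and 72 h, while no member's response to Das was called different between the times. The Sal response was more negative at 72 h for 31 members (median of the difference -0.92), against 13.7% of all genes, and none went the other way. For RRM2 the Sal response differed by -2.91 ± 0.47 between the times (adjusted p = 2.59e-05) and for MCM10 by -2.28 ± 0.47 (adjusted p = 0.000472). All 6 MCM genes and all 6 helicase activators were among the 31. The Das response differed between the times for none of the members (median -0.11), where 0.174% of all genes were called lower, while 6 had an unadjusted p under 0.05 and DESeq2 called 0. The 0.174% is no measure for the 6. Without replicate 3 of Das the median was -0.33, and 3 members (MCM3, MCM5 and MCM6) were called lower at 72 h, against 0.876% of all genes. The S + D response was more negative at 72 h for 15 members (median -0.54), against 10.1% of all genes. It was less negative or reversed for 3, RFC2 (0.82 ± 0.15), RPA2 (0.71 ± 0.13) and LIG1 (0.83 ± 0.14), where 6.15% of all genes were called higher. The 3 of 49 members were thus near the share among all genes. Per kb of canonical transcript, mean LIG1 with S + D was 23.1 CPM at 24 h and 25.2 at 72 h, while its controls went from 49.2 to 30.1. In the same unit RFC2 with S + D went from 25.3 to 37.9 and RPA2 from 30.5 to 42.8. From the numbered libraries, 38 members were lower for Sal (22.4% of genes), 19 for S + D (17.9%), and 4 were higher for S + D (13.7%), these 4 being a smaller share than that among all genes.

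**Figure D5:**
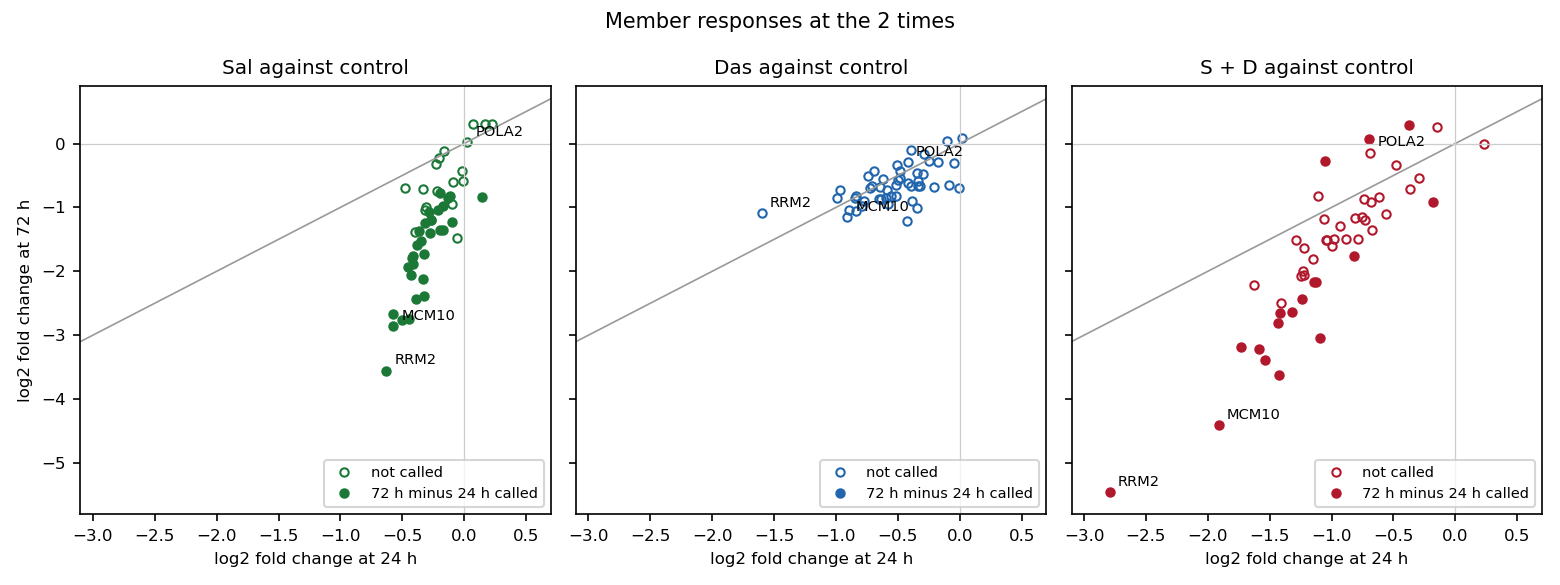
Log2 fold change of each member against control at 24 h (horizontal axis) and at 72 h (vertical axis) for Sal, Das and S + D, with filled points where the difference between the times had an adjusted p under 0.01 and a grey line of equal response. Sal points drop steeply below the line, to -3.56 for RRM2, Das points scatter along it, and S + D points start lower and reach -5.46.

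The controls themselves changed with time in culture. Of the 49 members, 46 were lower in the 72 h than in the 24 h controls (median -0.27), but in the fit of all 32 libraries only LIG1 was called, at -0.71 ± 0.10 (adjusted p = 3.82e-05), where 0.760% of all genes were called lower; its level went from 145, 156, 155 and 159 to 98.6, 89.5, 92.3 and 95.5 CPM. RRM2 was at -0.81 ± 0.33 (adjusted p = 0.139). The numbered libraries called 5 members lower, against 4.01% of all genes, and a fit of the control libraries alone called 15, against 2.72% of all genes. The drug responses above are each against the controls of the same time.

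Per length of the canonical transcript, the members covered a wide span in the 72 h controls. PCNA was highest at 356 ± 20.2 CPM per kb (SD, n = 4), followed by POLD2 at 182 ± 25.3, TYMS at 126 ± 14.1, RRM2 at 116 ± 7.80 and MCM3 at 108. The range of RRM2, 109 to 127 CPM per kb, overlapped those of TYMS, 116 to 147, and of MCM3, 107 to 112, while the last 2 did not overlap each other. At the low end were TIPIN at 7.70 ± 0.833, DSCC1 at 8.24 ± 0.799, CLSPN at 8.30 ± 0.355, POLE2 at 8.37 ± 0.969 and MCM10 at 8.66 ± 0.528 CPM per kb, whose ranges also overlapped.

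Members with and without an E2F-type match responded with overlapping sizes. At 72 h with Sal the median log2 fold change was -1.37 over the 22 genes with a match, from -2.76 to 0.02, and 20 were called lower. It was -0.97 over the 20 genes without a match in the window, from -3.56 to 0.31, and 13 were called lower. With S + D at 72 h the medians were -1.62 and -1.17. POLA2, at 0.02 with Sal, carries a match, and RRM2, at -3.56, carries none in the window shown above but 3 CCAAT matches.

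Other genes of the same processes were followed in 3 further lists with Sal at 72 h, when 26.8% of all genes were called lower and 26.3% higher. Of 28 other replication factors, 15 were lower and 6 higher (median -0.61), the share higher being no larger than that among all genes. The most negative were TOP2A, the topoisomerase of dividing cells (-2.89 ± 0.34), and DNA2, a nuclease and helicase (-2.43 ± 0.28). The 6 higher were the helicase RECQL4 (1.49 ± 0.22), the small polymerase subunits POLD4 (1.39 ± 0.15) and POLE3 (0.99 ± 0.16), the origin subunits ORC4 (0.76 ± 0.14) and ORC3 (0.69 ± 0.15), and TOPBP1 (0.53 ± 0.14). Subunits of polymerase epsilon thus changed in opposite directions, POLE and POLE2 down and POLE3 up. Of 20 genes of de novo purine and pyrimidine synthesis, 12 were lower and 2 higher (median -0.61), fewer higher than the share among all genes, with CTP synthase CTPS1 (-1.88 ± 0.18) and PFAS (-1.77 ± 0.27) lowest and PRPS1 (1.12 ± 0.13) and PPAT (0.78 ± 0.12) higher. Of 10 other genes of deoxynucleotide supply, 5 were lower and 3 higher (median -0.56), the latter near the share among all genes: the dNTP hydrolase SAMHD1 (-2.30 ± 0.28) and deoxycytidine kinase DCK (-1.78 ± 0.21) were lowest, and RRM2B, the stress-induced counterpart of RRM2 (0.93 ± 0.13), CDA (1.67 ± 0.42) and DGUOK (0.61 ± 0.17) were higher.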

How the data were processed

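RNA was measured in 32 libraries of MDA-MB-468 cells (TruSeq kit, single-end reads). The authors deposited raw counts per gene, aligned to GRCh37 with STAR 2.5.2 per the submitters' notes; the counting program, annotation and strand setting are not given in the sources used here. Groups came from the labels, with 8 libraries lacking a replicate number; each was matched to its column by condition letter, an inference. Ensembl identifiers were matched to symbols (46537 of 48804), and all 49 members matched. Counts were fitted with edgeR 4.0.16 (TMM, quasi-likelihood test, default filter with a minimum count of 10, R 4.3.3), 16 libraries per time point together and all 32 for comparisons between times, with Benjamini-Hochberg adjustment over all genes tested and a threshold of 0.01. DESeq2 1.42.0 was an alternative. The procedure was tested on simulated data. Replicates are described as biological, with no cultures named. Members and lists were chosen with earlier results of these data known. In each role, the members with the most and the least negative response to Sal at 72 h were given library by library in the conditions described, plus PCNA, RRM2 and any member called higher with a drug; RFC2, chosen after its values were seen, was added. In the other lists, genes called higher with Sal at 72 h and the 2 most negative were named. Gene positions and canonical transcript lengths came from GENCODE (GRCh37), promoters from RefSeq (GRCh38.p14). Intervals for counting error were not needed, since every member had at least 35 counts per library.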

Additional observations from a re-analysis of the deposited data

Results flagged for a closer look

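In 18 of the 144 groups of 4 libraries examined, 1 library lay far from the other 3 by Dixon's criterion, which chance meets in about 1 group in 20. The groups are different genes in the same libraries, so they are not independent, and the 18 cannot be set against that rate. In most of the 18 the library set apart was the unnumbered library. This was the highest of its group for DTL with Sal at 72 h (30.6 CPM) and with S + D at 72 h (11.3), for ORC1 with S + D at 24 h (66.6) and in the 72 h controls (50.5), for MCM10 with Sal at 72 h (11.4), for CDC45 with S + D at 72 h (10.5), for POLA2 in the 24 h controls (83.3), with Sal (107) and with S + D at 24 h (61.9), for RPA2 with Sal at 24 h (80.9), for RRM2 with Sal at 72 h (62.8), and for RRM1 with S + D at 24 h (102) and Sal at 72 h (111). It was the lowest for DTL in the 24 h controls (92.3 CPM), and it gave the highest summed member level with Das at 24 h (5012 CPM). Replicate 3 of Das at 72 h was the highest of its group for CDC45 (40.9 CPM) and RRM2 (399 CPM), and replicate 1 of S + D at 72 h for RPA2 (78.9 CPM). What sets these libraries apart was not tested.

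The response differed between 24 and 72 h, by the test of the difference itself, for 11 of the 17 members named by role with Sal and for 9 with S + D. Among all genes, 13.7% were called lower for Sal, and 10.1% lower and 6.15% higher for S + D. Most of the 17 were picked by their Sal response at 72 h, which enters the Sal difference. The 11 therefore say nothing about the members at large. The log2 difference with Sal was -2.91 for RRM2, -2.29 for DSCC1, -2.28 for MCM10, -2.04 for MCM5, -1.78 for DTL, -1.62 for POLE, -1.46 for RNASEH2A, -1.19 for TIMELESS, -1.12 for CDC45 and PCNA and -0.83 for MCM3. With S + D it was -2.61 for RRM2, -2.44 for MCM10, -2.15 for DSCC1, -1.81 for DTL, -1.33 for MCM5, -1.26 for POLE, -1.18 for CDC45 and -0.97 for TIMELESS, while RPA2 moved up, by 0.71.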

How the results depend on the processing

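Among values of named members under other settings, 695 kept their side of the threshold, 95 passed it where the reported value had not, and 26 no longer passed it. None that was called in either setting changed sign. Changes of sign among values called in neither were not counted. Counts of members called moved more. The share of all genes called can move with the setting too. For Sal at 24 h the share lower went from 2.23% to 10.9% in the numbered libraries. For Das at 72 h it went from 9.36% to 13.2% without replicate 3 of Das. The counts in this section are given without such shares, so a moved count is not a result about the members. Requiring also a log2 fold change beyond 1.5, they were 0 for Sal, 1 for Das and 6 for S + D against control at 24 h, 16, 0 and 25 at 72 h, 1 and 0 for S + D against Sal and against Das at 24 h and 0 and 11 at 72 h, 0 for the interaction at 72 h and for the controls between times, and 9 and 6 for the change with time of the Sal and S + D responses. At an adjusted p under 0.05 the count was 21 for Sal at 24 h, 38 for Das at 72 h, 8 for S + D against Sal at 72 h, 3 and 6 for the interaction at 24 and 72 h and 2 for the controls between times. Without a filter on low counts it was 3 for Sal at 24 h, 6 for S + D against Sal at 72 h and 0 for the interaction at 72 h. DESeq2 gave 19 for Sal at 24 h, 29 for Das at 72 h, 7 for S + D against Sal at 72 h, 6 and 2 for the interaction at 24 and 72 h, and 2 for the controls. With only the groups compared in the fit it was 1 for Sal at 24 h, 5 for Das at 72 h, 4 for S + D against Sal at 72 h, 15 for the controls and 28 for the change of the S + D response. With all 32 libraries in 1 fit it was 0 for Sal and 16 for Das at 24 h, 12 for S + D against Das at 24 h, and at 72 h 35 for Das, 8 for S + D against Sal and 3 for the interaction. A term for the unnumbered libraries gave 25 for Sal, 37 for S + D against Das and 6 for the interaction at 24 h, and at 72 h 29 for Das, 6 for S + D against Sal and 2 for the interaction, with 5 for the controls. The numbered libraries alone gave 33 for Sal, 45 for Das, 40 for S + D against Das and 14 for the interaction at 24 h, 1 for S + D against Sal and 0 for the interaction at 72 h, and 5 for the controls. The cause of these moves was not tested.

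The replicate block, a fit with the replicate name as a factor, gave 21 for Sal at 24 h, 3 for the interaction at 24 h, 32 for Das at 72 h, 6 for S + D against Sal at 72 h, 3 for the interaction at 72 h and 4 for the controls, and moved no other count by over 1.5 times. Deviations of same-numbered libraries correlated at 0.25 to 0.57 at 24 h and -0.14 to 0.48 at 72 h when the unnumbered libraries were included, and at -0.28 to 0.33 and -0.51 to 0.20 among the numbered ones, where 2 and 3 of 12 libraries correlated best with their own number, so numbers 1 to 3 were not taken to pair the samples.

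Leaving out 1 library at a time gave 2 to 8 members for Sal, 24 to 32 for Das and 39 to 44 for S + D against control at 24 h, and 36 to 43, 3 to 40 and 40 to 43 at 72 h. S + D against Sal gave 31 to 40 at 24 h and 1 to 8 at 72 h, and against Das 18 to 28 and 29 to 36. The interaction gave 0 to 1 at 24 h, the 1 without the unnumbered Sal or the unnumbered Das library, and 0 to 11 at 72 h. The controls between times gave 1 throughout, and the change with time 28 to 35 for Sal, 0 to 3 for Das and 17 to 21 for S + D. The 40 for Das, the 11 for the interaction, the 8 for S + D against Sal and the 3 for the change of the Das response each came without replicate 3 of Das at 72 h; its omission from comparisons that do not name Das was chosen after seeing the data.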
